A study of Mus musculus with 8 samples.

Results

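The 10 genes described here mark T cells and regulatory T cells: Cd3d, Cd3e, Cd3g, Cd4, Cd8a, Trdc, Icos, Ctla4, Foxp3 and Il2ra. They were chosen by name as rows of a table of 34745 genes, and all 10 had enough counts to be tested. The table holds RNA sequencing counts in 8 libraries from whole skin lesions of mice aged 16 weeks and labelled male, in 2 groups of 4. According to the protocol text all mice carried floxed alleles of Ncstn (Ncstn flx/flx), the gene of nicastrin (part of the γ-secretase complex), together with Krt14 CreER+/-, a tamoxifen-activated Cre recombinase, although the genotype label of the normal group reads wildtype. The NcstnΔKC mice were gavaged with tamoxifen from an age of 8 weeks, first 20 mg/kg daily on 5 days and later once in 10 days, and the normal mice received corn oil. The drug and the deletion therefore cannot be told apart. The Krt14 promoter drives CreER in keratinocytes, so the design does not aim the deletion at T cells.

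A T cell recognises antigen through a receptor made of an αβ or a γδ pair of chains, held at the surface by the CD3 proteins, which carry the signal into the cell. In the mouse the γδ receptor is built with CD3γ and CD3ε but without CD3δ, whereas the αβ receptor uses all of them. Mouse epidermis is known for a resident network of γδ T cells with an invariant receptor that uses Tcrg-V5 and Trdv4, the dendritic epidermal T cells. Conventional αβ T cells carry the co-receptor CD4 or CD8, and regulatory T cells are CD4 cells that depend on the transcription factor Foxp3 and display CD25 (the product of Il2ra), CTLA-4 and ICOS.

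Total counts ran from 5835422 to 8663753 in the normal libraries and from 11881506 to 12893174 in those labelled NcstnΔKC. CPM below stands for counts relative to the scaled library size, which lets libraries of unequal depth be compared. Ncstn itself had 58.4 to 61.9 CPM in normal libraries and 50.2 to 66.8 CPM in those labelled NcstnΔKC (log2 fold change -0.07, adjusted p = 0.663 by edgeR), so libraries are named by their labels throughout. Basal keratinocyte genes summed to 9320 to 13700 CPM in normal and to 13700 to 17500 CPM in NcstnΔKC libraries. Other tissue markers also moved with the groups: 8 of 8 skeletal muscle genes were lower (6590 to 62200 CPM summed in normal and 587 to 5360 CPM in NcstnΔKC libraries) and so were 6 of 7 adipocyte genes. Of 7 neutrophil genes 4 were tested and higher (4.86 to 13.5 and 81.6 to 282 CPM summed). The normal group was itself split in fibroblast genes, with 33400 and 34300 CPM summed in replicates 1 and 2 and 4440 and 5080 CPM in replicates 3 and 4. NcstnΔKC libraries had 4280 to 12300 CPM of them. The part of these tissues in the results below was not tested. Replicates 3 and 4 of both groups held 22304 to 37109 counts of Xist and the other 4 libraries 4 to 9, against the label male. NcstnΔKC replicate 1 stands apart in several genes below, and results that rest on it are given with and without it. That library was singled out after values were seen, so a gene that passes without it gains no independent support. No label says whether libraries came from separate animals, so p-values measure the spread between these libraries.

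Activation and co-receptor genes rose in the NcstnΔKC libraries, while the CD3 genes, the γδ chain Trdc and Foxp3 did not pass the test in either direction. By edgeR's quasi-likelihood test with Benjamini-Hochberg adjustment over 15684 genes, 5 of the 10 members were higher (Cd4, Cd8a, Icos, Ctla4 and Il2ra). Among all tested genes 21.4% were higher, 22.7% lower and 44.1% called in either direction. Of the members 0 were called lower by edgeR, with 1 (Trdc) at an unadjusted p under 0.05, and DESeq2 and limma-voom each called that gene lower. The median log2 fold change was 1.26 over the members and -0.02 over all tested genes. In 3 members (Cd4, Icos and Il2ra) the 4 NcstnΔKC libraries all lay above the 4 normal ones, and in 0 members the reverse held. Among all tested genes 41.6% had groups that did not overlap, 20.9% with NcstnΔKC higher. In whole tissue, fewer cells of a type and less RNA per cell cannot be told apart.

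**Figure D1:**
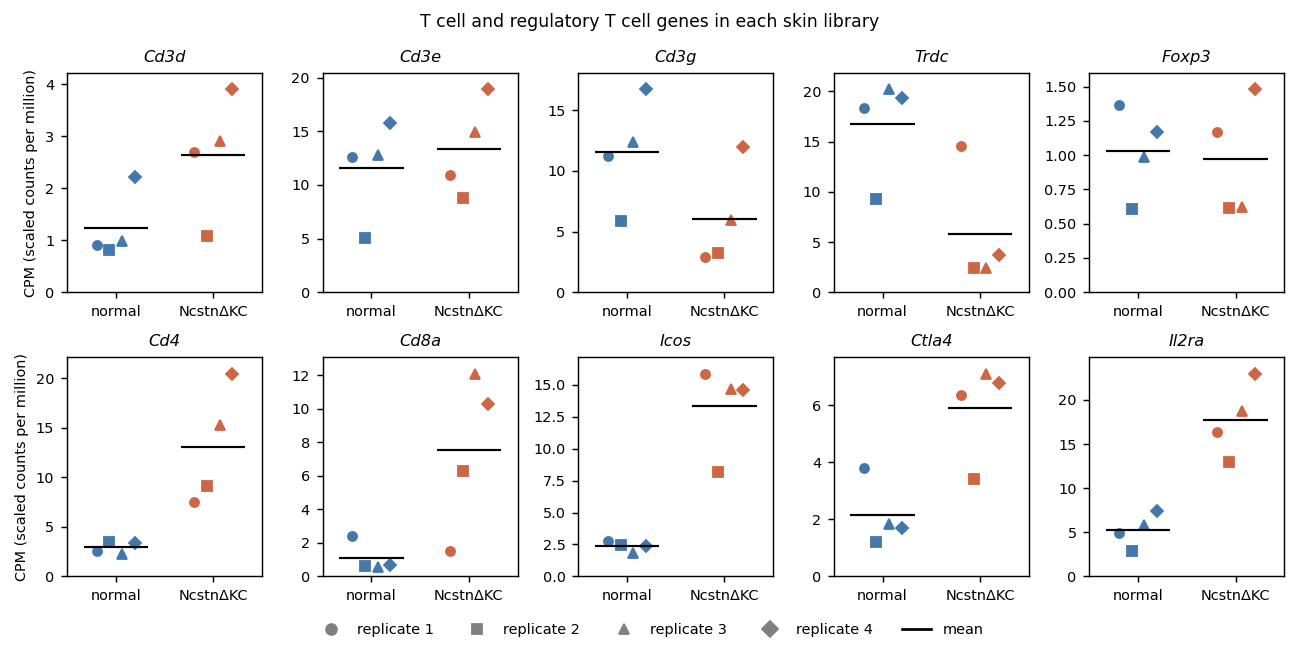
CPM of the 10 genes in the 8 skin libraries, each on its own axis from 0, with one symbol per replicate number and a line at each group's mean. Cd4, Icos and Il2ra show groups that do not overlap, Cd3e and Foxp3 spread over the same range in both groups, and Trdc is low in NcstnΔKC replicates 2 to 4 but not in replicate 1.

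The CD3 genes lie together on chromosome 9 (mm10). Cd3g (ENSMUSG00000002033, 44969572 to 44980431) and Cd3d (ENSMUSG00000032094, 44981793 to 44987052) point away from each other with 1361 bases between them, and Cd3e (ENSMUSG00000032093) follows at 44998743 to 45009590. Their upstream stretches are shown because these neighbours had fold changes of opposite sign. Each run is the 250 bases before the RefSeq start (GRCm38.p6, 5′ to 3′ on the gene's strand). Capitals mark matches, on either strand, to short core motifs of factors known from T cells: AGGAAG for ETS factors, TGTGGT for RUNX factors, CAGNTG for the E-box, AGATAA for GATA factors and TGGAAA for NFAT. The letters TATAAA of the TATA box were searched as well. No search letters of different motifs overlapped in these stretches.
Cd3d, chr9:44981536-44981785, plus strand: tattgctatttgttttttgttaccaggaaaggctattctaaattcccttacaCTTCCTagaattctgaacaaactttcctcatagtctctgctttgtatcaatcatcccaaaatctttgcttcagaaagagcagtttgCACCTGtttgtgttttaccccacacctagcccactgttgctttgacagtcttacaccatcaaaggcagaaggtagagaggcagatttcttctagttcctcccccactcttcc
Cd3g, chr9:44980432-44980681, minus strand: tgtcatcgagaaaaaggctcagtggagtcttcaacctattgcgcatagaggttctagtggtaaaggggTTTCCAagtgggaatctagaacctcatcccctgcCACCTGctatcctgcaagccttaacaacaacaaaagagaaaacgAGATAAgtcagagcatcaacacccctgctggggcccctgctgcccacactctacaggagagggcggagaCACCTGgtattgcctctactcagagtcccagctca
Cd3e, chr9:45009612-45009861, minus strand: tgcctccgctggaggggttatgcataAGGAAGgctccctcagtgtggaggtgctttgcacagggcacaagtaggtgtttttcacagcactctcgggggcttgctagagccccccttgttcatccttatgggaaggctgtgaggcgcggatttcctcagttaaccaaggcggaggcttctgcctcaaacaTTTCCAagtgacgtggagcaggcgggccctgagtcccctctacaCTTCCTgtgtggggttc

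The Cd3d stretch held 1 ETS and 1 E-box match, at 198 and 112 bases before the start. The Cd3g stretch held 2 E-box matches, 1 GATA match and 1 NFAT match but no ETS match. The Cd3e stretch held 2 ETS matches and 1 NFAT match. Of 32851 such stretches in the RefSeq table, 29.5% held the ETS letters, 44.8% the E-box, 10.0% GATA, 18.6% NFAT, 14% RUNX and 12.4% the TATA box, so each match is common, and none marks a site. The RUNX letters and the TATA box matched in none of the 3 stretches. Stretches were also found for Cd8a, Ctla4, Il2ra and Foxp3, so 7 of the 10 members matched the table. Cd4, Icos and Trdc were not among them.

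Cd3e, which encodes the CD3ε chain shared by αβ and γδ receptors, was level between the groups. It had 12.6, 5.04, 12.8 and 15.8 CPM in normal replicates 1 to 4 and 10.9, 8.81, 14.9 and 18.9 CPM in the NcstnΔKC replicates. The groups overlapped over most of their range, and the log2 fold change was 0.20 ± 0.35 (SE, 95% interval -0.60 to 1, adjusted p = 0.668). Cd3e had -0.23 when libraries were scaled to basal keratinocyte genes.

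Cd3g, which encodes CD3γ, also part of both receptor types, had 11.2, 5.85, 12.4 and 16.7 CPM in normal libraries and 2.94, 3.21, 5.94 and 12 CPM in NcstnΔKC libraries. NcstnΔKC replicates 3 and 4 lay within the normal range, replicate 3 just above its lowest value, and replicates 1 and 2 lay below it. The log2 fold change of -0.94 ± 0.49 (95% interval -2.04 to 0.16) did not pass (adjusted p = 0.145). Without NcstnΔKC replicate 4 it was -1.51 and passed (adjusted p = 0.0225, where the alternatives spanned 0.0225 to 0.368). It also passed with Xist status as a covariate (-1.06), with the replicate number as a block (-1.06) and with basal keratinocyte scaling (-1.40).

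Cd3d, which encodes the CD3δ chain that mouse γδ receptors lack, had 0.911, 0.806, 0.988 and 2.21 CPM in normal libraries and 2.69, 1.09, 2.9 and 3.9 CPM in NcstnΔKC libraries. Normal replicate 4 lay above NcstnΔKC replicate 2. The log2 fold change of 1.07 ± 0.47 (95% interval 0.00 to 2.13) did not pass (adjusted p = 0.0961). Leaving out either of those libraries brought it past the threshold (1.59 and 1.33 without normal replicate 4 and NcstnΔKC replicate 2, adjusted p = 0.0389 and 0.0336, where the alternatives spanned 0.0332 to 0.368). The depth behind Cd3d was small, with 34 counts over the normal group and 148 over the NcstnΔKC group.

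Within libraries, Cd3g stood lower against Cd3d and against Cd3e in the NcstnΔKC group. These ratios of counts were chosen after the values were seen and carry no test. Cd3d stood to Cd3g at 0.0811, 0.138, 0.0795 and 0.133 in normal replicates 1 to 4 and at 0.914, 0.34, 0.488 and 0.324 in the NcstnΔKC replicates. The lowest NcstnΔKC ratio was thus above the highest normal one. Cd3g stood to Cd3e at 0.892 to 1.16 in normal and at 0.269 to 0.635 in NcstnΔKC libraries, again without overlap. Cd3d stood to Cd3e at 0.0723 to 0.16 in normal and at 0.124 to 0.246 in NcstnΔKC libraries, and here the groups overlapped. Because both genes of a ratio come from the same library, these ratios do not change with the scaling of libraries.

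Trdc (ENSMUSG00000104876, chromosome 14, 54142851 to 54148868), the constant region of the δ chain and so a marker of γδ T cells, was the member with the lowest fold change. It had 18.4, 9.27, 20.2 and 19.3 CPM in normal libraries and 14.6, 2.39, 2.42 and 3.69 CPM in NcstnΔKC libraries. Replicates 2 to 4 of the NcstnΔKC group lay below every normal library, whereas replicate 1 lay inside the normal range. Over all 8 libraries the log2 fold change was -1.55 ± 0.60 (95% interval -2.91 to -0.20) and did not pass (adjusted p = 0.0613). Without NcstnΔKC replicate 1 it was -2.56 and passed (adjusted p = 0.000584, where the alternatives spanned 0.000178 to 0.644). The lowest p of that range came without both NcstnΔKC replicate 1 and normal replicate 2 (-2.76). With any other single library left out, Trdc did not pass (-1.70 to -1.29, adjusted p = 0.0582 to 0.134 by edgeR). Trdc held 27.3% to 33.8% of the members' summed counts in normal skin. In NcstnΔKC skin it held 18.3% in replicate 1 and 2.55% to 4.26% in replicates 2 to 4. Of the exon bases of Trdc, 7.8% are shared with Gm43434 and Trdv5, and those genes together held at most 3 counts in either group.

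Cd4 (ENSMUSG00000023274, chromosome 6, 124864692 to 124888221), the co-receptor of helper and regulatory T cells, had 2.58, 3.43, 2.26 and 3.39 CPM in normal libraries and 7.47, 9.16, 15.3 and 20.5 CPM in NcstnΔKC libraries. Every NcstnΔKC value was above every normal one. Cd4 rose by 2.17 ± 0.36 on the log2 scale (95% interval 1.36 to 2.98, adjusted p = 0.00176), a 4.51-fold change. Leaving out single libraries gave 1.88 to 2.37.

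Cd8a (ENSMUSG00000053977, chromosome 6, 71373427 to 71379173), the α chain of the CD8 co-receptor of cytotoxic T cells, had 2.43, 0.605, 0.565 and 0.651 CPM in normal libraries and 1.51, 6.29, 12.1 and 10.3 CPM in NcstnΔKC libraries. NcstnΔKC replicate 1 lay below normal replicate 1, and the other 3 NcstnΔKC libraries lay above all normal ones. Cd8a rose by 2.81 ± 0.71 on the log2 scale (95% interval 1.2 to 4.42, adjusted p = 0.0122). Without NcstnΔKC replicate 1 the value was 3.15, and without normal replicate 1 it was 3.69. Cd8b1, which encodes the partner β chain, followed with 0.671 CPM in NcstnΔKC replicate 1 and 1.91 to 5.98 CPM in the other 3, against 0.202 to 1.52 CPM in normal libraries. Cd8b1 rose by 2.15 ± 0.75 (adjusted p = 0.0435) but this call ended under 12 of 23 alternatives, among them limma-voom (1.97, adjusted p = 0.0972) and the omission of normal replicate 2, 3 or 4 or of NcstnΔKC replicate 2, 3 or 4 (1.60 to 2.32).

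Icos (ENSMUSG00000026009, chromosome 1, 60977927 to 61000320), a co-stimulatory receptor of activated T cells, regulatory T cells and type 2 innate lymphoid cells, had the lowest p of the members. It had 2.73, 2.42, 1.84 and 2.35 CPM in normal libraries and 15.9, 8.2, 14.7 and 14.6 CPM in NcstnΔKC libraries. The normal libraries lay close together, and replicate 2 was the lowest of the NcstnΔKC libraries. Icos rose by 2.52 ± 0.27 on the log2 scale (95% interval 1.91 to 3.13, adjusted p = 0.000265), a 5.72-fold change. Leaving out single libraries gave 2.43 to 2.70.

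Ctla4 (ENSMUSG00000026011, chromosome 1, 60887000 to 60915832), an inhibitory receptor that is constantly made by regulatory T cells and induced in other activated T cells, lies 62094 bases from Icos. It had 3.8, 1.21, 1.84 and 1.69 CPM in normal libraries and 6.38, 3.42, 7.12 and 6.78 CPM in NcstnΔKC libraries. Normal replicate 1 lay just above NcstnΔKC replicate 2, and the other values did not overlap. Ctla4 rose by 1.46 ± 0.39 on the log2 scale (95% interval 0.57 to 2.34, adjusted p = 0.0155).

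Il2ra (ENSMUSG00000026770, chromosome 2, 11642807 to 11693193), the α chain of the interleukin-2 receptor, is high on regulatory T cells and is also made by activated T cells and innate lymphoid cells. It had 4.86, 2.82, 5.79 and 7.43 CPM in normal libraries and 16.4, 13, 18.7 and 23 CPM in NcstnΔKC libraries. The lowest NcstnΔKC value was above the highest normal one. Il2ra rose by 1.75 ± 0.30 on the log2 scale (95% interval 1.07 to 2.42, adjusted p = 0.00209), and by 1.61 to 2.02 when single libraries were left out.

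Foxp3 (ENSMUSG00000039521, chromosome X, 7579676 to 7595243), the defining transcription factor of regulatory T cells, was low and level. It had 1.37, 0.605, 0.988 and 1.17 CPM in normal libraries and 1.17, 0.615, 0.622 and 1.48 CPM in NcstnΔKC libraries, and the groups covered nearly the same range. The counts were 3 to 9 in normal and 9 to 22 in NcstnΔKC libraries. The log2 fold change was -0.11 ± 0.41 (95% interval -1.04 to 0.82, adjusted p = 0.842), so a rise above 0.82 lay outside the interval. Its sign turned under total-count scaling (0.19), on FPKM (0.03) and without a filter (0.02). Of the annotated exon bases of Foxp3, 31.5% lie in exons of Ccdc22, Gm36995, Ppp1r3f or Flicr. How reads there were assigned is not given in the sources used here.

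**Figure D2:**
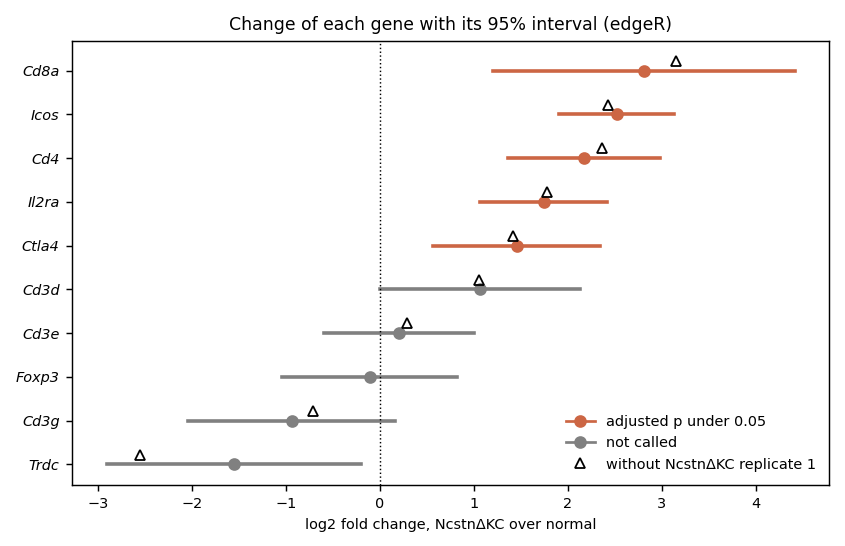
Log2 fold change of each gene, NcstnΔKC over normal, as points with bars for the 95% interval from edgeR, and open triangles for the value without NcstnΔKC replicate 1. The 5 called genes sit between 1.46 and 2.81, and Trdc moves from -1.55 to -2.56 when that library is left out. Foxp3 has no triangle because it was filtered out of that fit.

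Levels of different genes can be set against each other on the authors' FPKM scale, which corrects for gene length. In normal skin Cd3g (7.73 ± 3.15 FPKM), Cd3e (7.22 ± 3.03) and Trdc (3.87 ± 1.23, SD, n = 4 each) were the highest, and each overlapped its neighbour in the order. Below a gap came Cd3d (0.832 ± 0.468), Il2ra, Ctla4, Icos and Cd4 (0.523 ± 0.111), which overlapped in sequence. Foxp3 (0.139 ± 0.0523) and Cd8a (0.128 ± 0.12) were the lowest. In NcstnΔKC skin Cd3e (10.4 ± 3.82) and Cd3g (5.12 ± 3.73) still led, followed by Icos (4.21 ± 1.01), Il2ra (3.35 ± 0.879) and Cd4 (2.99 ± 1.46). Trdc (1.58 ± 1.48) had moved to the eighth place, ahead of Cd8a (1.12 ± 0.711) and Foxp3 (0.161 ± 0.0706). Every neighbour in the NcstnΔKC order overlapped the next. Without NcstnΔKC replicate 1, Trdc averaged 0.845 ± 0.221 FPKM and Cd8a 1.43 ± 0.432 FPKM (SD, n = 3 each), so these members changed places.

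Ratios between members within a library ask whether the make-up of the T cell transcripts differed, whatever the total. Of 4 log2 ratios tested, 0 passed a two-sided exact permutation test (70 arrangements of the libraries) after adjustment over the 4 ratios, and 1 had an unadjusted p under 0.05. With 70 arrangements, a ratio that alone reached the smallest p could not pass this adjustment. That 0 passed therefore does not show an equal make-up. Trdc to Cd3e was 0.54, 0.87, 0.65 and 0.29 in normal and 0.42, -1.87, -2.60 and -2.35 in NcstnΔKC libraries. The means were 0.59 ± 0.24 and -1.60 ± 1.38 (SD, n = 4 each), and the exact permutation p was 0.0571 (adjusted p = 0.114). Again NcstnΔKC replicate 1 alone lay within the normal range. Ctla4 to Icos was 0.46, -0.94, 0.00 and -0.45 in normal libraries and -1.32, -1.25, -1.04 and -1.11 in NcstnΔKC libraries, all of the latter below the former. Its exact permutation p of 0.0286 is the smallest that 70 arrangements allow, with an adjusted p of 0.114. Foxp3 to Cd3e had means of -3.32 ± 0.39 and -3.77 ± 0.55 (exact permutation p = 0.171, adjusted p = 0.229). Cd4 to Cd8a had means of 1.64 ± 1.05 and 1.04 ± 0.87 (exact permutation p = 0.457). Normal replicate 1 (0.08) and NcstnΔKC replicate 1 (2.27) each stood away from the rest of their group in this ratio.

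**Figure D3:**
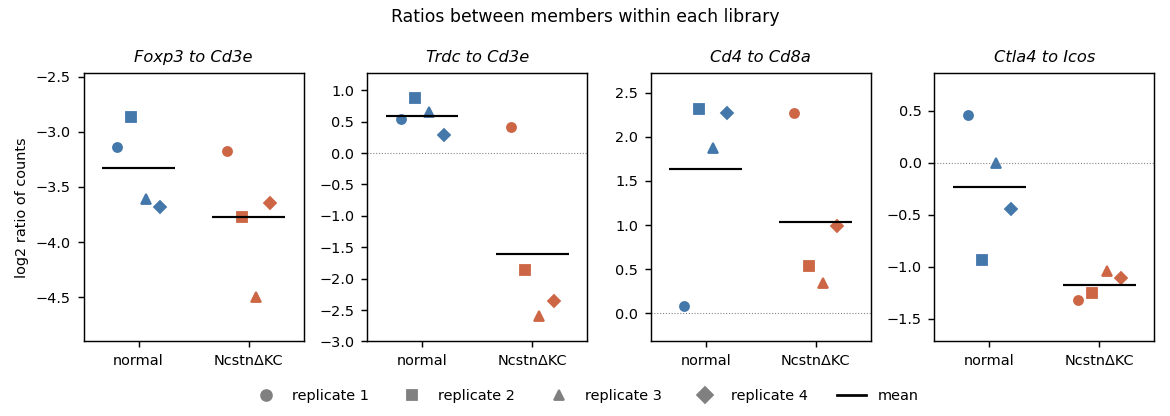
Log2 ratios of counts between pairs of members within each library, with one symbol per replicate number and a line at each group's mean. The Ctla4 to Icos ratios do not overlap between the groups, and the Trdc to Cd3e ratio is below -1.8 in NcstnΔKC replicates 2 to 4 but 0.42 in replicate 1.

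Other chains of the T cell receptor moved in 2 directions. The αβ constant regions Trbc1 (0.85 ± 0.25, adjusted p = 0.0229) and Trbc2 (0.66 ± 0.19, adjusted p = 0.0229) rose on the log2 scale, and all NcstnΔKC libraries lay above the normal ones. Scaled by basal keratinocyte genes, neither passed (0.42 and 0.18). Both calls also ended without NcstnΔKC replicate 3 (0.81 and 0.63) and without NcstnΔKC replicate 4 (0.86 and 0.66), that of Trbc1 without normal replicate 3 (0.87) and that of Trbc2 without NcstnΔKC replicate 2 (0.64). Trac had 2.58, 0.202, 2.96 and 2.08 CPM in normal and 3.19, 3.07, 7.6 and 9.07 CPM in NcstnΔKC libraries, without overlap, but did not pass (1.51 ± 0.59, adjusted p = 0.0658). Without NcstnΔKC replicate 1 it did (1.70, adjusted p = 0.0417). Of the γ chain genes, Tcrg-C1 fell by 1.35 on the log2 scale (SE 0.45, adjusted p = 0.0363), a call that ended with scaling by total counts (-1.07, adjusted p = 0.0581) and in 6 of 8 fits that left out 1 library (all but those without NcstnΔKC replicate 1 or normal replicate 2). Tcrg-C2 had 1.01 ± 0.57 and did not pass (adjusted p = 0.178), nor did it without NcstnΔKC replicate 1 (0.56, adjusted p = 0.398).

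The variable segments of the epidermal γδ receptor were counted too. Tcrg-V5 had 12, 7, 10 and 12 counts in normal replicates 1 to 4 and 4, 2, 0 and 3 counts in the NcstnΔKC replicates, although the latter libraries were deeper. In CPM that was 1.82, 1.41, 1.41 and 1.56 against 0.336, 0.137, 0 and 0.201, and no library of one group reached the other. Tcrg-V5 fell by 3.16 on the log2 scale (SE 0.56, adjusted p = 0.0025), a call that remained without NcstnΔKC replicate 1 (-3.63) and under each other alternative except the libraries without Xist alone (-2.75, adjusted p = 0.118). Trdv4, its usual partner, had 4.11 CPM in NcstnΔKC replicate 1 and 0.615 to 1.34 CPM in replicates 2 to 4, against 2.02 to 3.39 CPM in normal libraries. It did not pass over all libraries (-0.82 ± 0.60) but did without NcstnΔKC replicate 1 (-1.74, adjusted p = 0.00624). Trdv4 is also used by γδ T cells of the dermis that make IL-17 and pair it with Tcrg-V6.

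**Figure D4:**
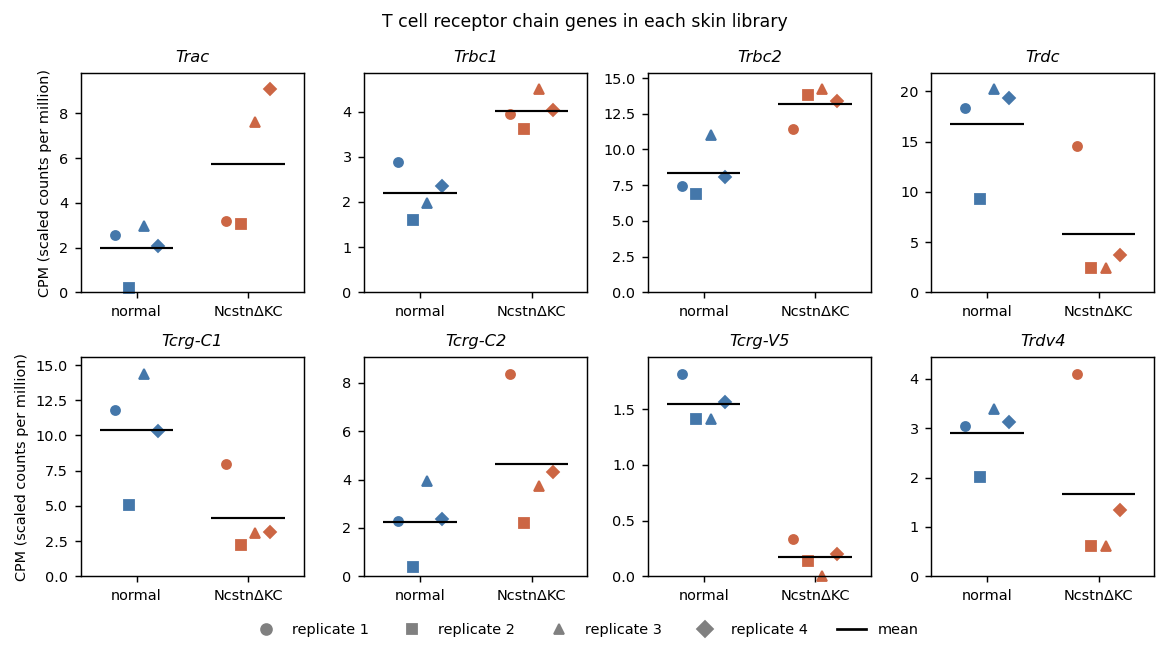
CPM of 8 T cell receptor chain genes in each library, with one symbol per replicate number and a line at each group's mean. The αβ genes Trac, Trbc1 and Trbc2 are higher in all NcstnΔKC libraries, Tcrg-V5 is lower in all of them, and Trdc, Tcrg-C1 and Trdv4 are low in NcstnΔKC replicates 2 to 4.

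Counts over variable segments, summed by chain, carry no test, since the sums were formed after values were seen. Segments of the α chain had 3 to 11 counts in normal and 21 to 66 counts in NcstnΔKC libraries, or 0.976 ± 0.474 and 3.18 ± 1.13 CPM (SD, n = 4 each). Those of the β chain had 0.783 ± 0.419 and 3.66 ± 2.31 CPM. The number of α segments with a count was 3 to 5 in normal and 12 to 30 in NcstnΔKC libraries, which were also the deeper ones. Segments of the γ chain summed to 3.64 ± 1.04 and 2.32 ± 1.2 CPM. Those of the δ chain summed to 3.03 ± 0.751 and 1.77 ± 1.76 CPM. Without NcstnΔKC replicate 1 the NcstnΔKC sums were 1.75 ± 0.456 CPM for γ and 0.905 ± 0.384 CPM for δ segments (SD, n = 3 each). Of the 128 α segments in the table, 10 carry a name shared with the δ chain.

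Genes that carry the receptor's signal rose with the co-receptors. Of 20 genes of the T cell receptor complex and its signalling 11 rose and the other 9 did not pass, with a median log2 fold change of 1.37. Among all tested genes 21.4% were higher. Cd6 (3.43 ± 0.42) and Cd5 (1.52 ± 0.32), surface receptors of T cells, rose. So did the adaptor Lat (1.75 ± 0.35) and the kinases Lck (1.81 ± 0.42) and Zap70 (1.76 ± 0.41). Cd6 had 2 to 8 counts in normal and 70 to 157 counts in NcstnΔKC libraries, so its fold is poorly measured. Cd247, the ζ chain, had -0.08 ± 0.47, and -0.64 without NcstnΔKC replicate 1 (adjusted p = 0.169). With basal keratinocyte scaling 8 of the 20 rose and 1 fell, where 1000 of 15684 tested genes were higher and 5821 lower. Without NcstnΔKC replicate 1 the number that rose was 15, where 3870 of 15843 tested genes were higher. It was 8 without NcstnΔKC replicate 3 or 4, where 2733 of 15746 and 2911 of 15755 tested genes were higher. It was 9 without normal replicate 3 or NcstnΔKC replicate 2, where 3160 of 16326 and 2948 of 15781 were higher. Pan-leukocyte genes moved with them: 7 of 9 rose (median 1.36), among them Cd53 (2.85 ± 0.44), while Ptprc, which encodes CD45, had 0.43 ± 0.32 (adjusted p = 0.303). With basal keratinocyte scaling 4 of the 9 rose. The summed pan-leukocyte level was 189 to 361 CPM in normal and 357 to 832 CPM in NcstnΔKC libraries. Its part in the members' changes was not tested.

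Of 20 genes associated with regulatory T cells 17 were tested, 12 of which rose, with a median of 1.37. The share of all tested genes that were higher was 21.4%. With basal keratinocyte scaling 8 of the list were higher and 2 lower, where 1000 of 15684 tested genes were higher and 5821 lower. Without a filter all 20 were tested, 12 were higher and 0 lower. Tigit, an inhibitory receptor, was called but had 1 count in each normal library and 16 to 39 counts in NcstnΔKC libraries, so it passed the filter only through the latter and its fold is poorly measured. The tumour necrosis factor receptors Tnfrsf9 (3.10 ± 0.52), Tnfrsf4 (1.72 ± 0.33) and Tnfrsf18 (1.57 ± 0.32), which encode 4-1BB, OX40 and GITR, rose as well. The chemokine receptor Ccr8 rose by 1.81 ± 0.46 and the transcription factor Batf by 1.64 ± 0.40. Tnfrsf9 had 2 to 8 and Ccr8 2 to 7 counts in normal libraries. Tnfrsf9 and Ccr8 too passed the filter only through the NcstnΔKC group, so their folds are poorly measured. Ikzf2, which encodes the transcription factor Helios, was level (-0.05 ± 0.18, adjusted p = 0.846). Most of these genes are not particular to regulatory T cells, and activated T cells, innate lymphoid cells, stromal cells and keratinocytes make several of them. Il1rl1, the IL-33 receptor, is an example made by regulatory T cells, mast cells and type 2 innate lymphoid cells: it rose by 3.17 ± 0.67 (2.80, adjusted p = 0.0537 with limma-voom), with 8.22 CPM in NcstnΔKC replicate 1 and 56.2 to 96.5 CPM in the other 3. Mast cell genes summed to 70.5 to 143 CPM in normal libraries, 94.7 CPM in NcstnΔKC replicate 1 and 357 to 501 CPM in replicates 2 to 4, and their part was not tested. The type 2 innate lymphoid cell list shares Il13, Klrg1, Il1rl1 and Gata3 with other lists. It summed to 459 to 732 CPM in normal and 336 to 405 CPM in NcstnΔKC libraries. Of its 4 tested genes 1 was higher and 1 lower, and the part of these cells was not tested either. Il1rl1 made up 3.02 to 9.77 CPM of the normal sums, and Gata3 is also made by keratinocytes. These sums therefore do not measure the amount of such cells. Il10 was not tested, with 0 to 3 counts in normal libraries, 0 in NcstnΔKC replicate 1 and 16 to 38 in replicates 2 to 4.

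Partners of the receptors among the members rose in part. Of 15 costimulation and checkpoint genes 12 were tested, 5 of which rose (median 0.84), against 21.4% of all tested genes. Icosl, the ligand of ICOS, rose by 1.30 ± 0.20 (adjusted p = 0.00123), and Cd80, a ligand of CTLA-4 and CD28, by 2.08 ± 0.32, whereas the other such ligand, Cd86, had 0.13 ± 0.26. Cd28 rose by 1.82 ± 0.40 and Pdcd1, which encodes PD-1, was called higher with 0 to 3 counts in normal and 35 to 86 counts in NcstnΔKC libraries. Pdcd1 thus passed the filter only through the NcstnΔKC group. Of 14 genes of interleukin-2 and common γ chain signalling 13 were tested, 5 of which rose (median 0.52), against the same 21.4%. The number was 3 without normal replicate 2, NcstnΔKC replicate 3 or NcstnΔKC replicate 4. In those fits 3515 of 16279, 2733 of 15746 and 2911 of 15755 tested genes were higher. It was also 3 with basal keratinocyte scaling (median 0.09), where 1000 of 15684 were higher. The 5 include the receptor chains Il2rb (2.01 ± 0.42), Il7r (1.80 ± 0.46) and Il2rg (1.04 ± 0.33), whose call ended under 10 of 23 alternatives (0.55 with basal keratinocyte scaling), and the feedback regulator Cish (1.61 ± 0.32). Il2 itself had 0 to 3 counts per library and was not tested.

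Among 14 helper T cell factors and cytokines 7 were tested, with 1 higher and 3 lower, against 21.4% and 22.7% of all tested genes. The higher one, the type 2 cytokine Il4, had 1 to 2 counts in normal and 14 to 117 counts in NcstnΔKC libraries, so it too passed the filter only through the latter. Without a filter 14 were tested, with 1 higher and 3 lower, and without NcstnΔKC replicate 1 the number lower was 5. Gata3 (-1.01 ± 0.17), Lef1 (-4.55 ± 0.89) and Tcf7 (-1.04 ± 0.30) fell. These factors are also made by keratinocytes and hair follicles. The call for Tcf7 ended under several alternatives, among them the omission of normal replicate 1 (-0.93), normal replicate 2 (-0.74) or NcstnΔKC replicate 2 (-0.90). Ifng, Il17a, Il21 and Il22 were not tested, because the filter asked for enough counts in 4 libraries. A gene left out may thus still have counts in fewer libraries. In the 4 libraries with Xist alone 9 genes of the list were tested, with 4 higher and 4 lower. There 4267 of 16219 tested genes were higher and 4120 lower.

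**Figure D5:**
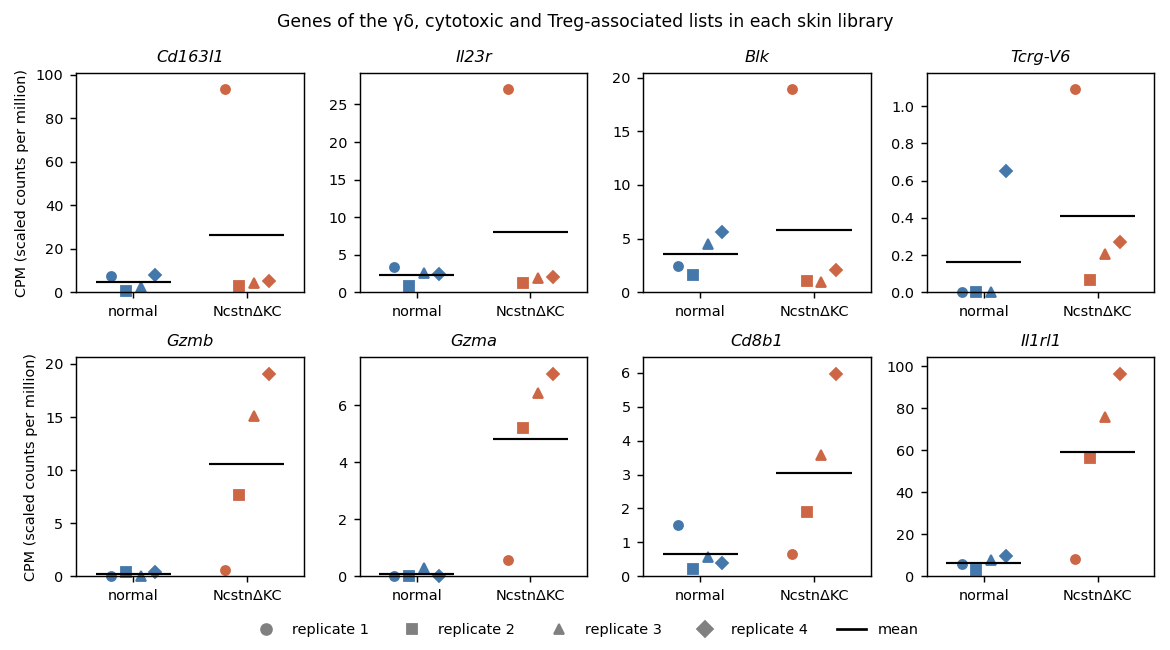
CPM of 8 genes from the γδ, cytotoxic, signalling and Treg-associated lists, picked after their values were seen because NcstnΔKC replicate 1 lies apart. That library is the highest in Cd163l1, Il23r, Blk and Tcrg-V6 and the lowest of its group in Gzmb, Gzma, Cd8b1 and Il1rl1.

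NcstnΔKC replicate 1 differed from the other 3 libraries of its group in more than the higher Trdc and lower Cd8a given above. Its summed macrophage genes (437 against 1860 to 2520 CPM) and mast cell genes (94.7 against 357 to 501 CPM) were also lower. The difference was thus not confined to T cell genes. Genes known from γδ T cells that make IL-17 were far higher there: Cd163l1 had 93.3 CPM against 2.73 to 5.1 CPM in NcstnΔKC replicates 2 to 4 and 0.605 to 7.82 CPM in normal libraries. Il23r, the IL-23 receptor, had 27 CPM there against 1.23 to 2.08 and 0.806 to 3.34 CPM. The kinase Blk had 18.9 CPM there against 0.968 to 2.08 and 1.61 to 5.6 CPM. The granzymes of cytotoxic cells went the other way. Gzmb had 7 counts in NcstnΔKC replicate 1, 112 to 285 counts in replicates 2 to 4 and 0 to 3 counts in normal libraries. Gzma had 7, 76 to 106 and 0 to 2 counts in the same order. The granzymes were not tested over all libraries because the filter asked for enough counts in 4 libraries. In the γδ T cell list 3 of 12 tested genes were lower (Tcrg-V5, Sox13 and Tcrg-C1) over all libraries, a share near the 22.7% of all tested genes. The number was 1 without normal replicate 1 or 4 or NcstnΔKC replicate 2, 3 or 4, and 2 without normal replicate 2 or 3. Sox13 (-1.64 ± 0.53) lost its call in 6 of 8 fits that left out 1 library (all but those without NcstnΔKC replicate 1 or normal replicate 3). Without NcstnΔKC replicate 1 the number was 6, and the list's median went from -0.06 to -1.03.

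Transcripts of other cells that can carry member genes were checked. Of 7 lymph node genes Ccl19 and Ccl21a had 0 counts in all libraries, and Cr2 and Madcam1 had at most 1.27 and 0.424 CPM. The counting settings are not given, so 0 counts need not mean that a gene was silent. The summed list was 3.95 to 15 CPM in normal and 29.3 to 55.3 CPM in NcstnΔKC libraries, nearly all of it Cxcl13 in the latter (29.2 to 55 CPM). Of 6 B cell genes 1 (Jchain) was tested and higher, a call that ended under 10 of 23 alternatives. Without a filter 6 were tested, with 0 higher and 1 lower and a median of -1.46. The B cell list summed to 3.43 to 12.6 CPM in normal and 3.36 to 69.8 CPM in NcstnΔKC libraries. Ncr1, a receptor of natural killer cells, had 0 to 0.806 CPM. The natural killer and cytotoxic list summed to 7.26 to 12.6 CPM in normal and 3.61 to 44 CPM in NcstnΔKC libraries, and its part was not tested. The dendritic and Langerhans cell list, whose cells can carry Cd4 or Cd8a, summed to 45 to 84.9 CPM in normal and 21.4 to 56 CPM in NcstnΔKC libraries. Of its 10 genes 6 were tested, with 0 higher and 4 lower, where 22.7% of all tested genes were lower. The lower ones included Clec9a (-2.27 ± 0.44), Flt3 (-2.10 ± 0.34) and Cd207 (-2.70 ± 0.56). Without a filter 10 were tested, with 0 higher and 6 lower. Without NcstnΔKC replicate 1, 8 were tested and 6 were lower, but Cd209a was higher (0.81, adjusted p = 0.0105 by edgeR). The part of these cells in the changes of Cd4 and Cd8a was not tested. Macrophage genes summed to 374 to 723 CPM in normal libraries, 437 CPM in NcstnΔKC replicate 1 and 1860 to 2520 CPM in replicates 2 to 4. Of 9 macrophage genes 4 were higher, against 21.4% of all tested genes. The number was 7 without NcstnΔKC replicate 1 and 1 without normal replicate 3 or NcstnΔKC replicate 3 or 4. The part of macrophages in the members' changes was not tested.

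The libraries with and without Xist were also taken apart. In the 4 libraries with Xist, 2 of each group, the same 5 members were higher and Trdc was lower (-2.65), with 51.7% of genes called. In the 4 without it 0 members passed edgeR, where 0.0255% of all genes did, and 3 higher and 1 lower had an unadjusted p under 0.05. The 5 called members kept their direction in that subset, with 1.47 for Cd4, 1.33 for Cd8a, 2.22 for Icos, 0.94 for Ctla4 and 1.92 for Il2ra. The difference between the subsets passed for 0 members as an interaction term in edgeR (adjusted p = 0.836 to 0.997), with Cd4 and Cd8a at an unadjusted p under 0.05 (0.042 and 0.0436).

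Genes with profiles most like 3 of the members were sought by the root mean square difference of centred log2 CPM over the 8 libraries. For Cd3e these were Scn3a (0.196), Gm6665 (0.219), Dock2 (0.238), Parvg (0.249) and 2900052L18Rik (0.25), against a median of 0.72 over 15683 genes. For Trdc they were Lor (0.255), Gm16907 (0.302), Kcna5 (0.367), Sdpr (0.375) and Cldn23 (0.384), against a median of 1.33. For Foxp3 they were Gab3 (0.247), Pde10a (0.261), Lrp11 (0.271), Cep135 (0.28) and Tmem192 (0.285), against a median of 0.68.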

How the data were processed

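Whole skin RNA was sequenced in 8 libraries, and the authors deposited raw whole-number counts and FPKM values per Ensembl gene. The submitters' processing notes name TopHat2 2.0.9, TopHat and HTSeq and the builds mm10 and hg38, without order or settings. FPKM (fragments relative to gene length and library size) was made by the authors, per the file headers. Strand setting and annotation release are not given in the sources used here.

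Libraries were grouped by title (4 NcstnΔKC, 4 normal). Genes were filtered with filterByExpr (minimum count 10), scaled by TMM and tested with edgeR 4.0.16 (R 4.3.3, robust quasi-likelihood test, two-sided, threshold 0.05) over 15684 genes. Log2 ratios used a pseudocount of 0.5 and an exact permutation test. The procedure was tested on simulated data. Alternatives used limma 3.58.1 and DESeq2 1.42.0, log2(FPKM + 1), other scalings and filters, subsets and each library left out. Overlaps were taken from GENCODE M21, and upstream sequences from RefSeq.

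The members, the 20 gene lists beside them (211 entries, all matched) and the tests were chosen with earlier results of these data known. The rule for named genes took all members, from each other list the 3 genes with the lowest p and defining genes that bear on a result, and the 5 genes most like Cd3e, Trdc and Foxp3. Lists of cells that bear on no member are not described gene by gene, and other genes named were chosen after their values were seen. Some genes of these lists are not reported here. Counts give the depth, and shares and intervals cover counting and library spread only.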

Additional observations from a re-analysis of the deposited data

Results flagged for a closer look

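In 28 sets of 4 values (10 members and 4 ratios in 2 groups) 5 had a library whose gap to the nearest other, as a share of the group's range, was above Dixon's critical value for 4 samples. Chance alone marks about 1 in 20 such sets. Trdc had 14.6 CPM in NcstnΔKC replicate 1, where the other 3 had 2.39 to 3.69 CPM. It had 9.27 CPM in normal replicate 2, below the 18.4 to 20.2 CPM of the other normal libraries. Cd8a had 2.43 CPM in normal replicate 1, where the others had 0.565 to 0.651 CPM. Cd3d had 2.21 CPM in normal replicate 4, above 0.806 to 0.988 CPM in the others. Icos had 8.2 CPM in NcstnΔKC replicate 2, below 14.6 to 15.9 CPM in the others, and still above every normal library.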

How the results depend on the processing

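Across 23 alternatives the 5 called members kept their direction, and the number of members called was 5 to 7 except in the 4 libraries without Xist, where it was 0. There Cd4 (1.47), Cd8a (1.33), Icos (2.22), Ctla4 (0.94) and Il2ra (1.92) lost their call, in a fit with 4 libraries. Members called lower numbered 1 instead of 0 with upper-quartile scaling, the DESeq2 Wald test, limma-voom, FPKM, the Xist covariate, the 4 libraries that hold Xist, and when NcstnΔKC replicate 1 and normal replicate 2 were both dropped, and 2 with scaling by basal keratinocyte genes. Trdc passed with upper-quartile scaling (-1.65), basal keratinocyte scaling (-1.89), the Wald test (-1.52), limma-voom (-2.02), FPKM (-1.02), the libraries that hold Xist (-2.65) and with those 2 libraries dropped (-2.76). Cd3g passed with basal keratinocyte scaling (-1.40) and the Xist covariate (-1.06), and Cd3d with total counts (1.38) and FPKM (0.79). Cd3e reversed with basal keratinocyte scaling (-0.23), and Foxp3 with total counts (0.19), FPKM (0.03) and no filter (0.02), and its value was -0.37 with those 2 libraries dropped. The cause was not tested. The median of all genes was 0.29 with total counts, 0.20 with FPKM and -0.50 with basal keratinocyte scaling, against -0.02; these 3 gave 5323 higher and 2224 lower genes, 5351 and 2115, and 1000 and 5821.

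With single libraries left out, members called higher numbered 5 to 6, members called lower 0 to 1 and all called 5 to 6. The values ranged from 0.83 to 1.59 for Cd3d, 0.00 to 0.44 for Cd3e, -1.51 to -0.65 for Cd3g, 2.50 to 3.69 for Cd8a, 1.34 to 1.95 for Ctla4, -0.22 to 0.11 for Foxp3 and -2.56 to -1.29 for Trdc. Foxp3 was filtered out without NcstnΔKC replicate 1 and without NcstnΔKC replicate 4. For the 4 ratios the smallest p was 0.0286 with 1 library left out and 0.125 with the replicate block, so a single ratio could not pass after adjustment over 4, and their alternatives say nothing about stability. The filter of at least 1 CPM in 4 libraries kept 15684 genes.

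No label says that replicate numbers pair animals, and the deviations of same-numbered libraries correlated at -0.018, -0.032, -0.012 and 0.217 in replicates 1 to 4. With the replicate number as a block, 7 members passed: 5 higher, where Cd3d (1.11) joined and Cd8a (2.71, adjusted p = 0.0634) did not pass, and 2 lower, Trdc (-1.92) and Cd3g (-1.06).

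Depth is low for Foxp3 (28 counts over the normal and 54 over the NcstnΔKC group), Cd8a (28 and 438) and Cd3d (34 and 148).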

Other observations

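The γ constant regions Tcrg-C1 and Tcrg-C2 shifted against each other. Tcrg-C1 stood to Tcrg-C2 at 5.2, 12.5, 3.64 and 4.39 in normal replicates 1 to 4 and at 0.95, 1.03, 0.815 and 0.734 in the NcstnΔKC replicates, in counts. All 4 NcstnΔKC libraries, replicate 1 included, lay below every normal one. Trac stood to Trdc at 0.0217 to 0.147 in normal libraries, at 0.218 in NcstnΔKC replicate 1 and at 1.29 to 3.14 in replicates 2 to 4. These pairs were chosen after the values were seen and were not tested.

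Icos stood to Cd3e at 0.143 to 0.48 in normal and 0.773 to 1.46 in NcstnΔKC libraries, and Il2ra to Cd3e at 0.386 to 0.56 and 1.21 to 1.5. Both activation genes thus lay higher relative to Cd3e in every NcstnΔKC library. These pairs too were chosen after the values were seen and were not tested. They restate the calls of Icos and Il2ra beside a level Cd3e and add no support. The Foxp3 to Cd3e ratios overlapped between the groups, but they rest on 3 to 22 counts of Foxp3 per library.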
